A study of Mus musculus with 8 samples.

Results

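The genes examined here are 43 genes of ribosome biogenesis and the nucleolus, chosen by name from the 23504 gene symbols of the count table, and all 43 were found there. RNA was sequenced from the dissected outer cortex of the kidney, in 4 libraries of mice on a high fat diet and 4 libraries of mice on a control diet, all of the strain C57Bl6/J and wild type. Both diets began at 6 weeks of age and lasted 9 weeks, so the mice of both groups were 15 weeks old. The stated purpose was to find genes expressed differently between the diets. Each library carries a letter, A, B, F and G on the high fat diet and I, J, L and M on the control diet, and values are given in that order. Since the labels do not tie libraries to separate animals, p-values cover the spread between libraries only, which may be technical.

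Ribosomes are built in the nucleolus. RNA polymerase I, with the factors Ubtf and Rrn3, transcribes a long precursor of ribosomal RNA, which small nucleolar ribonucleoproteins (snoRNPs) chemically modify: the box C/D class with fibrillarin (Fbl) methylates it, and the box H/ACA class with dyskerin (Dkc1) converts uridines to pseudouridine. A large assembly called the small subunit processome folds and cuts the part that becomes the small subunit, late factors such as Nob1 finish it in the cytoplasm, and a separate set of helicases, methyltransferases and scaffold proteins assembles the large subunit. In many tissues this work takes a large share of a cell's energy and follows growth signals such as MYC and mTOR.

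The promoters of 6 members are printed because 5 of them, Nop2, Heatr1, Nop58, Nolc1 and Ddx18, were lower on the high fat diet in the test of all libraries and in each of the 8 tests that left out 1 library, and because Nhp2 was the member that was higher. Each window holds 250 bases before and 50 bases after the gene's start in RefSeq on GRCm38.p6, written along the gene's own strand. Capitals mark any of 4 motifs searched on both strands: CACGTG (the E-box of MYC and other helix-loop-helix proteins), CCGGAAG (a core of ETS family sites), TCGCGAGA (a palindromic promoter element) and CGCATGCG (a core of NRF1 sites). No marked match here overlapped another.
Nop2, chr6:125131633-125131932, plus strand: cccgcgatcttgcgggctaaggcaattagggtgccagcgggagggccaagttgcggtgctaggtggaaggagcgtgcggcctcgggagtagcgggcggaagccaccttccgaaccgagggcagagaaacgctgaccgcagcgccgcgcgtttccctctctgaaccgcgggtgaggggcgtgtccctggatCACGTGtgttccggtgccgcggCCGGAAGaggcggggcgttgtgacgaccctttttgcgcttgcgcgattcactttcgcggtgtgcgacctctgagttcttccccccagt
Heatr1, chr13:12395125-12395424, plus strand: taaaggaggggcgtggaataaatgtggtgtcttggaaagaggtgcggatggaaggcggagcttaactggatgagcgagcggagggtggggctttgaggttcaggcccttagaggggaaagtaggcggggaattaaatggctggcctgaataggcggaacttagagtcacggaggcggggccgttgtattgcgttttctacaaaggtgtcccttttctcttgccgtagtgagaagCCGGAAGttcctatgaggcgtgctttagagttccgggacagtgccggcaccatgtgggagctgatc
Nop58, chr1:59684756-59685055, plus strand: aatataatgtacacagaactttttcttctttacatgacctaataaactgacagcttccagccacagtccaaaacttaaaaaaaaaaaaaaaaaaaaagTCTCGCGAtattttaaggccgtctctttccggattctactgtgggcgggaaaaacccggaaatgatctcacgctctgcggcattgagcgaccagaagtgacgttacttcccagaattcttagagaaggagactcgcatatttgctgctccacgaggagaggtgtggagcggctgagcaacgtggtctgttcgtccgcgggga
Nolc1, chr19:46075597-46075896, plus strand: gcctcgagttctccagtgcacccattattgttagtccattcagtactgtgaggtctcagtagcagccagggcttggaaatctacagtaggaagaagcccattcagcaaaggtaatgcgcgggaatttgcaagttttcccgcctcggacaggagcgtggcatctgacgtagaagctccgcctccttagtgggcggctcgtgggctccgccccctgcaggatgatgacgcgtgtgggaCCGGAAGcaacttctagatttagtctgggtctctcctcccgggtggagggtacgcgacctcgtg
Ddx18, chr1:121567931-121568230, minus strand: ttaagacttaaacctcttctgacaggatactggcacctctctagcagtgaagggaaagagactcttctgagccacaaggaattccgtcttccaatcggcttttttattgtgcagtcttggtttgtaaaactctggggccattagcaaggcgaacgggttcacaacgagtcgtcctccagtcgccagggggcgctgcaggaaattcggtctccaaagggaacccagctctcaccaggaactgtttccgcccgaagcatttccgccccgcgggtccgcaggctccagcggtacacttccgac
Nhp2, chr11:51619523-51619822, plus strand: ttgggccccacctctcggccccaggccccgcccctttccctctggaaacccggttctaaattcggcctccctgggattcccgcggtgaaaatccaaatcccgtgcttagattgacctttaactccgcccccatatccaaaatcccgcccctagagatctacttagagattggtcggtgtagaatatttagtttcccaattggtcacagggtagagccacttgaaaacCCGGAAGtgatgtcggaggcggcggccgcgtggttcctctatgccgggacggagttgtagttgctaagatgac

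The Nop2 window held the E-box 60 bases before the gene's start and the ETS core 38 bases before it. The ETS core stood 16 bases before the start in Heatr1, 14 before it in Nolc1 and 23 before it in Nhp2. These distances hold for the RefSeq starts. In GENCODE M21, Heatr1 begins at 12395027, before the whole printed window, and Nhp2 at 51619735, before its ETS core. The palindromic element stood 152 bases before the start in Nop58, and the Ddx18 window held none of the 4 motifs. RefSeq windows were at hand for 38 of the 43 members, 48 windows in all because some genes have several starts, and windows of 1 gene can overlap. Among member windows, 18.8% held the E-box, against 7.15% of 32851 windows of all genes and 9.47% of 13174 windows of genes tested. The ETS core was in 27.1% of member windows, 8.86% of all windows and 15.3% of windows of tested genes. The palindromic element was in 10.4%, 0.995% and 1.82% in the same order, and the NRF1 core in 6.25%, 1.87% and 3.48%. These shares describe the windows, and a match is not a measured binding site.

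Total expected counts per library, the estimated counts that the authors deposited, ran from 23503593 to 26291029 on the high fat diet and from 26572175 to 30781585 on the control diet, which separated the diets (two-sided exact permutation test over 70 arrangements, p = 0.0286, its lowest possible value). Rn45s, the precursor of ribosomal RNA, is a transcript that the ribosomal RNA removal of library making is meant to deplete, so its share is not a measure of its synthesis. It took 4.82%, 13.3%, 7.84% and 6.68% of counts on the high fat diet and 5.70%, 50.3%, 2.71% and 1.23% on the control diet. Control J thus stood apart, and the share did not separate the diets (exact two-sided permutation p = 0.971). Rn45s was removed before library sizes were computed, and total counts without it did not separate the diets (exact two-sided permutation p = 0.8). Control J kept 13993652 counts without it, against 21793784 to 30403685 in the other libraries. Markers of cortical cell types were present, led by proximal tubule genes, whose 9 markers summed to 47626 to 53069 CPM on the high fat diet and 41734 to 48930 CPM on the control diet. CPM here are TMM-scaled counts per 1000000 counts of the library, with Rn45s left out. Each member had between 46 and 4749 expected counts in a library.

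On the high fat diet, 11 members fell and 1, Nhp2, rose (edgeR quasi-likelihood test, Benjamini-Hochberg adjusted p under 0.05 over 14711 genes tested). In limma on log2 FPKM as deposited, with either pseudocount tried, 0 members were called, where 91 and 98 of all genes were, and 0 members passed at an unadjusted p under 0.05. The same FPKM were also rescaled to the TMM-scaled library sizes without Rn45s, a fit added after the data were seen. It called 11 members, where 1387 of all genes were called, and 22 members passed at an unadjusted p under 0.05. All 43 members passed the filter on low counts, so edgeR called 27.9% of members, against 9.99% of all genes tested. Among all genes, 5.13% fell and 4.86% rose, close to equal shares. The median log2 fold change of the members was -0.15, against -0.00 over all genes, and 34 of 43 members lay below 0, against 50.5% of all genes. On the log2 FPKM scale as deposited, where the median of all genes moved up by 0.14, the member median was 0.00, still 0.14 under that of all genes. At an unadjusted p under 0.05, 20 members were lower and 2 were higher, where all genes gave 14.1% lower and 13.3% higher. In 15 members every high fat library lay below every control library, and in 0 members above, against 9.2% and 8.31% of all genes. In bulk tissue, fewer cells of a type and less RNA per cell cannot be told apart.

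**Figure D1:**
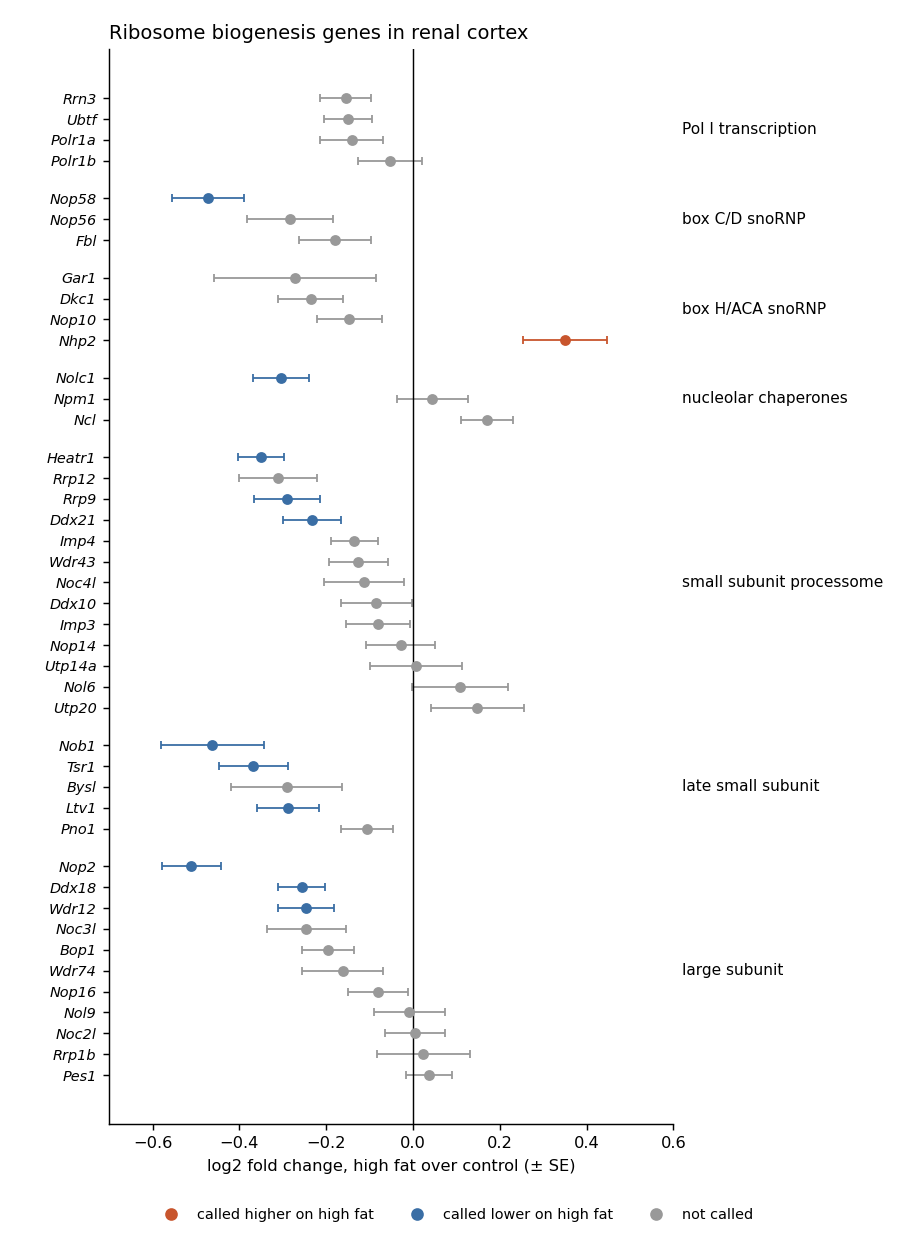
Log2 fold change (high fat over control) of each of the 43 members with its standard error, grouped by role; values below 0 are lower on the high fat diet. The 11 members called lower and Nhp2, the 1 called higher, are coloured, and 34 of the 43 points lie left of 0.

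The member medians separated the diets library by library. For each library, the median over members of log2 CPM minus the gene's own mean was -0.07, -0.03, -0.09 and -0.12 on the high fat diet and 0.09, 0.07, 0.04 and 0.09 on the control diet. All 4 high fat libraries lay below all 4 control libraries on this measure, while the same median over all tested genes stayed between -0.0036 and 0.0085. Control J, the library with the most Rn45s, lay inside the range of the other control libraries. Leaving out control J, edgeR gave 7 members that fell and 0 that rose, where 2.55% of all genes fell and 2.84% rose. Leaving out also high fat G, the library with the most red cell RNA, 3 members fell (Nop2, Heatr1 and Nop58) and 0 rose, where 1.17% of all genes fell and 1.66% rose. When any single library was left out, 5 (high fat F out) to 9 members (control M or high fat B out) fell. That number was 6 with high fat A or G out, 7 with control I or J out and 8 with control L out.

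**Figure D2:**
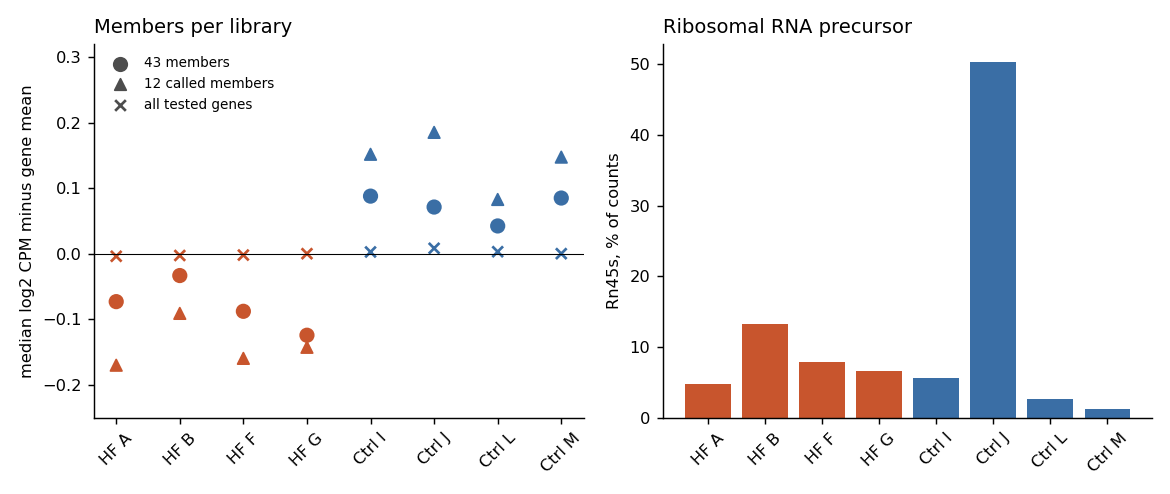
Left, median over the 43 members (circles), the 12 called members (triangles) and all tested genes (crosses) of log2 CPM minus the gene mean in each library; right, Rn45s as a percent of all counts. Member medians lie between -0.12 and -0.03 in the high fat libraries (HF) and between 0.04 and 0.09 in the control libraries (Ctrl), while Rn45s reaches 50.3% in control J alone.

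Levels of different members can be compared only per length, so the deposited FPKM (fragments scaled to transcript length and library total) were used for their order. The median over the 8 libraries was highest for Npm1, a histone and ribosome chaperone of the nucleolus, at 112 FPKM. Nop10 and Nhp2, small proteins of the box H/ACA snoRNP, followed at 84.1 and 40.3 FPKM, and Imp3 and Pno1 at 32.1 and 21.0 FPKM. The lowest were Gar1 at 1.62 FPKM, Rrp1b at 2.08, Rrp12 at 2.88 and Noc3l at 3.60. Most neighbours in this order were closer than their spread between libraries: Npm1 spanned 46.8 to 115 FPKM and Nop10 48.9 to 97.2. The low ends came from control J, whose FPKM were a median of 0.461 times those of the other control libraries over the members and in which Rn45s took 50.3% of counts. The box H/ACA proteins therefore held both the second highest and the lowest place of the order.

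Of the 4 genes of polymerase I transcription, edgeR called 0, with 2 lower and 0 higher at an unadjusted p under 0.05. Their median log2 fold change was -0.15, with 4 of 4 below 0, and their summed level was 189 to 193 CPM on the high fat diet and 196 to 221 CPM on the control diet. Ubtf, which binds the ribosomal RNA gene promoter and body, was at 90.9, 86.5, 89.2 and 89.4 CPM on the high fat diet and 103, 99.4, 89.9 and 103 CPM on the control diet, a log2 fold change of -0.15 ± 0.06 (SE; edgeR adjusted p = 0.112). Rrn3, which brings the polymerase to the promoter, was at 38.8, 38.3, 35.6 and 36.8 CPM on the high fat diet, against 43.2, 38.2, 41.6 and 42.97 CPM on the control diet (log2 fold change -0.15 ± 0.06 SE; edgeR adjusted p = 0.116). In both genes control values reached down to the high fat range, control L in Ubtf and control J in Rrn3. Polr1a, the largest subunit of the polymerase, averaged 38.0 ± 2.64 CPM on the high fat diet and 41.9 ± 3.07 CPM on the control diet (SD, n = 4 each), with an edgeR adjusted p of 0.228. The remaining gene, Polr1b, had a log2 fold change of -0.05.

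Of the box C/D snoRNP core, Nop58 fell and Nop56 and Fbl did not pass the test. Nop58 (chromosome 1, 59684971 to 59719044, plus strand, GENCODE M21 on GRCm38), which with Nop56 holds the guide RNA, was at 17.6, 17.9, 15.6 and 15.7 CPM on the high fat diet and 25.9, 20.7, 21.8 and 23.8 CPM on the control diet. The lowest control value lay above the highest high fat value. The log2 fold change was -0.47 ± 0.08 (SE; edgeR adjusted p = 0.00805). Nop56 averaged 21.5 ± 3.41 CPM on the high fat diet and 26.0 ± 1.45 CPM on the control diet (SD, n = 4 each; edgeR adjusted p = 0.0932), and high fat B, at 26.4 CPM, lay inside the control range. Fbl, the methyltransferase, averaged 20.4 ± 1.46 CPM on the high fat diet and 23.3 ± 2.36 CPM on the control diet (SD, n = 4 each; edgeR adjusted p = 0.183).

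The box H/ACA snoRNP held the 1 member that rose. Nhp2 (chromosome 11, 51619735 to 51623714, plus strand), a core protein that binds the guide RNA, was at 43.9, 38.9, 48.2 and 45.7 CPM on the high fat diet and 37.4, 31.4, 30.1 and 39.4 CPM on the control diet. High fat B lay below control M, so the groups overlapped. The log2 fold change was 0.35 ± 0.10 (SE; edgeR adjusted p = 0.0434), and the call was kept in 2 of 8 fits with 1 library left out, those without control M or high fat B. It was lost without control I, J or L or high fat A, F or G, and reached an adjusted p of 0.117 when high fat F was left out. Exons of Nhp2 overlap those of Rmnd5b on the other strand by 44 bases, and Rmnd5b was also higher on the high fat diet, by 0.38 on the log2 scale (edgeR adjusted p = 0.0221). The sources used here do not say whether counting used strand, so reads of that stretch cannot be assigned to either gene. The pseudouridine synthase gene Dkc1 went the other way, at 15.0, 15.2, 13.8 and 14.2 CPM on the high fat diet and 18.7, 16.1, 17.7 and 15.9 CPM on the control diet. Its groups did not overlap, with a log2 fold change of -0.24 ± 0.07 (SE), but it did not pass the test (edgeR adjusted p = 0.0695). Nop10 and Gar1 had log2 fold changes of -0.15 and -0.27, and Gar1 rested on only 46 to 80 expected counts per library.

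Of the 3 nucleolar chaperones, Nolc1 fell and Ncl and Npm1 did not pass the test. Nolc1 (chromosome 19, 46075863 to 46085530, plus strand), a phosphoprotein that escorts snoRNPs, was at 27.2, 32.1, 31.2 and 31.4 CPM on the high fat diet and 37.7, 38.2, 35.9 and 38.8 CPM on the control diet. The groups were apart, and it fell with a log2 fold change of -0.30 ± 0.06 (SE; edgeR adjusted p = 0.0156). Nucleolin (Ncl), which binds the precursor as it is made, was at 127, 140, 136 and 137 CPM on the high fat diet and 123, 130, 116 and 111 CPM on the control diet. Its log2 fold change of 0.17 ± 0.06 (SE) pointed up, without passing the test (edgeR adjusted p = 0.0963), and the groups overlapped at high fat A and control J. Npm1 averaged 156 ± 18.04 CPM on the high fat diet and 151 ± 9.47 CPM on the control diet (SD, n = 4 each), a log2 fold change of 0.04 ± 0.08 (SE; edgeR adjusted p = 0.765).

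Among 13 genes of the small subunit processome and its helpers, 3 fell and 0 rose. Heatr1 (chromosome 13, 12395027 to 12440289, plus strand), a scaffold protein of the assembly that is also needed for polymerase I transcription, was at 40.7, 40.003, 41.1 and 41.96 CPM on the high fat diet and 51.9, 54.9, 48.9 and 53.3 CPM on the control diet. The high fat libraries lay close together and all below the controls. The log2 fold change was -0.35 ± 0.05 (SE; edgeR adjusted p = 0.00427). Rrp9 (chromosome 9, 106475963 to 106485424, plus strand), a protein of the snoRNP that guides early cleavage, was at 11.8, 10.5, 11.01 and 11.05 CPM on the high fat diet and 14.3, 14.2, 12.6 and 13.4 CPM on the control diet (log2 fold change -0.29 ± 0.08 SE; edgeR adjusted p = 0.0369). Ddx21 (chromosome 10, 62580251 to 62602281, minus strand), an RNA helicase, was at 44.7, 52.6, 51.8 and 54.4 CPM on the high fat diet and 58.7, 62.9, 57.9 and 59.8 CPM on the control diet (log2 fold change -0.23 ± 0.07 SE; edgeR adjusted p = 0.0490). In both genes the groups were apart, but most fits with 1 library left out lost the call. The Rrp9 call was kept only without control L, with adjusted p up to 0.0989 when control I was left out, and the Ddx21 call was lost in all 8 such fits, up to 0.115 with control J out. Rrp12, a transport factor of the small subunit, just missed the test at 12.5, 12.1, 13.6 and 12.9 CPM on the high fat diet and 14.2, 14.7, 16.0 and 18.3 CPM on the control diet (log2 fold change -0.31 ± 0.09 SE; edgeR adjusted p = 0.0518). DESeq2, which gave 13 called members where 12.6% of all genes were called, called Rrp12. The other 9, Utp14a, Utp20, Nol6, Wdr43, Imp3, Imp4, Nop14, Noc4l and Ddx10, had log2 fold changes from -0.13 to 0.15, with 3 above 0.

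Of the 5 late small subunit factors, 3 fell, and all 5 had log2 fold changes below 0, from -0.46 to -0.11. With high fat F left out, none of these 3 calls (Nob1, Tsr1 and Ltv1) was kept. Nob1 (chromosome 8, 107412486 to 107425051, minus strand), the endonuclease that makes the last cut of the small subunit RNA, was at 7.40, 9.88, 7.80 and 8.41 CPM on the high fat diet and 13.3, 12.1, 9.98 and 10.8 CPM on the control diet. High fat B and control L nearly met. The log2 fold change was -0.46 ± 0.12 (SE; edgeR adjusted p = 0.0344), and the call was lost with any of control I, control J and high fat A, F and G left out, up to an adjusted p of 0.0955 with control I out. The neighbour Nqo1, a quinone reductase gene that lies 9280 bases away, had a larger fall, to 38.7 ± 3.93 CPM on the high fat diet against 90.4 ± 14.01 CPM on the control diet (SD, n = 4 each; log2 fold change -1.22; edgeR adjusted p = 0.00109). On the other side of Nob1, Wwp2 had a log2 fold change of -0.03 (edgeR adjusted p = 0.766). Beside other called members, Iffo1 fell along with Nop2 (-0.30, edgeR adjusted p = 0.0491). Phactr2 rose beside Ltv1 (0.32, edgeR adjusted p = 0.0207), and Hnrnpab fell beside Nhp2 (-0.18, edgeR adjusted p = 0.0389). Tsr1 (chromosome 11, 74898071 to 74909342, plus strand), which holds the maturing particle, was at 22.2, 25.6, 21.6 and 23.4 CPM on the high fat diet and 28.7, 34.4, 27.8 and 29.4 CPM on the control diet. Its groups were apart, and its log2 fold change was -0.37 ± 0.08 (SE; edgeR adjusted p = 0.0184), with the call lost only without high fat F (0.0559). Ltv1 (chromosome 10, 13178140 to 13193168, minus strand), which is released when the particle matures, was at 16.9, 17.4, 17.1 and 17.3 CPM on the high fat diet and 21.1, 19.2, 23.5 and 19.9 CPM on the control diet. The high fat values nearly coincided. Its log2 fold change was -0.29 ± 0.07 (SE; edgeR adjusted p = 0.0313), and the call was kept only without control J or control M, with adjusted p up to 0.0799 (without high fat F). Bysl, an earlier factor of the same particle, averaged 15.0 ± 0.694 CPM on the high fat diet and 18.2 ± 3.90 CPM on the control diet (SD, n = 4 each; edgeR adjusted p = 0.170), with control M at 23.3 CPM and control I at 14.7. Pno1 had a log2 fold change of -0.11.

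**Figure D3:**
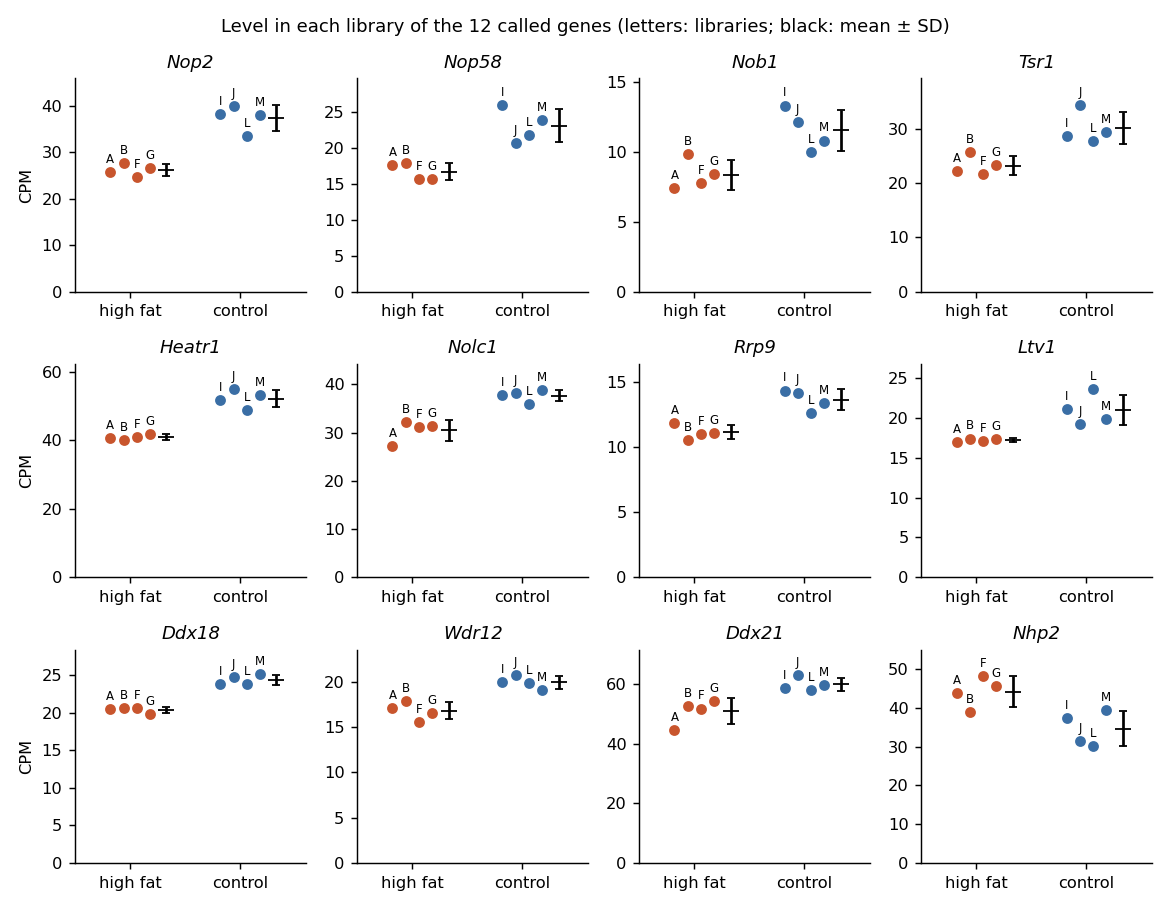
CPM in each library of the 12 called members, with the library letter over each point and the mean with its SD in black, high fat libraries left and control libraries right; each axis starts at 0. The groups are apart in the 11 genes that fell, and in Nhp2 high fat B (38.9 CPM) lies below control M (39.4 CPM).

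Of 11 genes of large subunit assembly, 3 fell and 0 rose. Nop2 (chromosome 6, 125131909 to 125144753, plus strand), which methylates a cytosine of the large subunit RNA, had the strongest fall of all members. It was at 25.8, 27.6, 24.6 and 26.7 CPM on the high fat diet and 38.2, 39.99, 33.4 and 37.9 CPM on the control diet, so the closest libraries of the diets were high fat B and control L. The log2 fold change was -0.51 ± 0.07 (SE; edgeR adjusted p = 0.00231), between -0.56 and -0.48 with single libraries left out. Ddx18 (chromosome 1, 121553835 to 121567989, minus strand), a helicase of the early particle, was at 20.5, 20.7, 20.6 and 19.8 CPM on the high fat diet and 23.8, 24.7, 23.8 and 25.1 CPM on the control diet (log2 fold change -0.26 ± 0.05 SE; edgeR adjusted p = 0.0160). Both diets were tight around their means in this gene. Wdr12 (chromosome 1, 60069785 to 60098645, minus strand), Bop1 and Pes1 form the PeBoW complex, which is needed to process the large subunit RNA. Wdr12 was at 17.1, 17.9, 15.6 and 16.6 CPM on the high fat diet and 20.0, 20.8, 19.9 and 19.1 CPM on the control diet (log2 fold change -0.25 ± 0.06 SE; edgeR adjusted p = 0.0373). Its call was kept only without control M or high fat B, with adjusted p up to 0.110 (without high fat F). Bop1 was at 33.1, 29.8, 33.6 and 33.9 CPM on the high fat diet and 38.6, 37.0, 35.6 and 38.2 CPM on the control diet, apart but not called (log2 fold change -0.20 ± 0.06 SE; edgeR adjusted p = 0.0613). The third partner, Pes1, had a log2 fold change of 0.04, and differences in shift between the 3 subunits were not tested. The other 7, Nop16, Wdr74, Rrp1b, Noc2l, Noc3l, Nol9 and Pes1, had log2 fold changes from -0.25 to 0.04.

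Some members share sequence with other transcripts. In 11 members, 5 of them called, exons overlap a gene on the opposite strand, by up to 1240 bases in Tsr1 with Srr. Heatr1 shares 155 bases with Lgals8, Wdr12 61 with Carf and Rrp9 20 with Parp3. None of Srr, Lgals8, Carf and Parp3 passed the test, and their log2 fold changes were 0.04, 0.12, -0.02 and -0.06. Among members not called, Dkc1 shares 45 bases with Mpp1, which had a log2 fold change of -0.25 (edgeR adjusted p = 0.0805). Idh3b, Wdr92, Ccnd3, Hsf2bp and Samd11, which overlap Nop56, Pno1, Bysl, Rrp1b and Noc2l, had log2 fold changes of 0.03, 0.18, -0.05, 0.29 and -0.08. In 6 members, Nop58 and Tsr1 among the called ones, annotated small nucleolar RNA genes lie inside the gene, 18 in all.

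The authors' deposited table of differential genes listed 9 of the 43 members, all of which were tested here. That table listed 1125 of the 14711 genes tested here. Of all symbols, a set with many that were not tested here, it listed 4.81%. In the authors' deposited table the fold (high fat over control) was 0.702 for Nop2, 0.726 for Nop58, 0.774 for Tsr1, 0.786 for Heatr1, 0.812 for Nolc1, 0.824 for Ltv1, 0.852 for Ddx21 and 0.875 for Bop1. Ncl was the 1 member that the authors' deposited table gave as higher, with a fold of 1.13. Of those 9, edgeR called 7, all but Bop1 and Ncl, and 5 members called by edgeR, Ddx18, Nob1, Rrp9, Wdr12 and Nhp2, are not listed.

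Other genes that build ribosomes, taken from 5 lists that share no gene with the members, gave 17 falls (13.3%) and 0 rises among 128 tested. Over all genes tested, 5.13% fell and 4.86% rose. Their median log2 fold change was -0.12, and 104 lay below 0. With control J left out 5 fell, where 2.55% of all genes fell. That number was 2 once high fat G was dropped too, where 1.17% of all genes fell. Large subunit assembly held 10 of the 17 among its 48 genes. Npm3, a nucleoplasmin relative that binds Npm1, was at 16.4, 17.6, 20.4 and 17.99 CPM on the high fat diet and 27.1, 24.6, 26.1 and 28.7 CPM on the control diet (log2 fold change -0.56 ± 0.08 SE; edgeR adjusted p = 0.00286). Mdn1, a giant ATPase that strips factors from the large particle, was at 68.6, 74.4, 66.6 and 68.4 CPM on the high fat diet and 95.1, 96.3, 81.9 and 90.7 CPM on the control diet (log2 fold change -0.39 ± 0.06 SE; edgeR adjusted p = 0.00597). Both kept their call with any library left out, and in both the groups were apart. Mak16, of the early large particle, had a log2 fold change of -0.27 ± 0.06 (SE; edgeR adjusted p = 0.0252), and its call was lost without control I, J or L or high fat F or G (up to 0.0758).

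The 39 other processome genes gave 4 falls, which Nol11, Emg1 and Pdcd11 led. Nol11 averaged 23.4 ± 0.891 CPM on the high fat diet and 28.9 ± 1.42 CPM on the control diet (SD, n = 4 each; log2 fold change -0.31; edgeR adjusted p = 0.0117) and kept its call with any library left out. Emg1, a pseudouridine methyltransferase, had a log2 fold change of -0.25 (edgeR adjusted p = 0.0210), lost without control I or high fat G (up to 0.0526). Pdcd11, which acts on both subunits, had a log2 fold change of -0.33 (edgeR adjusted p = 0.0208), lost with control I, control J or high fat A left out (up to 0.0589). Of 11 other polymerase I genes, Polr1e alone fell (log2 fold change -0.29; edgeR adjusted p = 0.0332), lost without control I, J or M or high fat B, F or G (up to 0.0918). Of 19 exosome and trimming genes, Nol12 and Isg20l2 fell, with log2 fold changes of -0.45 and -0.26 (edgeR adjusted p = 0.0230 and 0.0349). The Nol12 call was lost with control I, control J, high fat A or high fat F left out (up to 0.0688), and the Isg20l2 call whichever library was left out (up to 0.0739). The 11 snoRNP assembly factors gave 0 calls in edgeR, with 3 lower and 1 higher at an unadjusted p under 0.05.

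Among genes of the finished ribosome, 10 of 50 ribosomal protein genes fell and 0 rose, where 5.13% of all genes fell and 4.86% rose. Of the 50 ribosomal protein genes tested, 28 of the large and 22 of the small subunit, all had log2 fold changes below 0, with medians of -0.17 and -0.19, while on the log2 FPKM scale as deposited 36 lay below 0 and all 50 below the median of all genes. The large subunit proteins gave 4 falls and the small 6. Without control J, 0 large and 2 small subunit genes fell, where 2.55% of all genes fell. Rpsa averaged 387 ± 25.8 CPM on the high fat diet and 489 ± 53.4 CPM on the control diet (SD, n = 4 each; log2 fold change -0.34; edgeR adjusted p = 0.0254). Rps4x had a log2 fold change of -0.27 (edgeR adjusted p = 0.0332), and Rpl35, Rpl12 and Rpl8 of -0.33, -0.31 and -0.23 (edgeR adjusted p = 0.0229, 0.0326 and 0.0447). Each of these 5 calls was lost without control I and without high fat F, with adjusted p up to 0.0731 for Rpsa, 0.0917 for Rps4x, 0.0669 for Rpl35, 0.0901 for Rpl12 and 0.121 for Rpl8. That of Rpsa was also lost with high fat G left out, those of Rps4x and Rpl35 with high fat G or control J or L, and those of Rpl12 and Rpl8 with high fat A or G or control J or L. Ribosomal protein genes have many near-identical pseudogenes, so the sharing of reads between copies makes their levels uncertain.

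The RNA polymerase III genes, which make a short ribosomal RNA of the large subunit and transfer RNAs, were centred near 0. They had a median of -0.01 over 21 genes and 1 fall (Polr3k, log2 fold change -0.20; edgeR adjusted p = 0.0425, lost whichever library was left out, up to 0.110). Against 5.13% of all genes tested that fell, 2 of 10 snoRNA host genes without a protein fell and 0 rose. Their median was 0.06, but 0.00 with control J left out, -0.07 with high fat B left out and -0.06 over the 4 genes whose mean reached 5 CPM. Gas5 was at 22.7, 21.7, 21.8 and 20.0 CPM on the high fat diet and 28.6, 31.0, 28.8 and 27.9 CPM on the control diet (log2 fold change -0.43 ± 0.06 SE; edgeR adjusted p = 0.00335), and kept its call with any library left out. Snhg8 had a log2 fold change of -0.39 (edgeR adjusted p = 0.0337), kept only without control M (up to 0.0831).

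**Figure D4:**
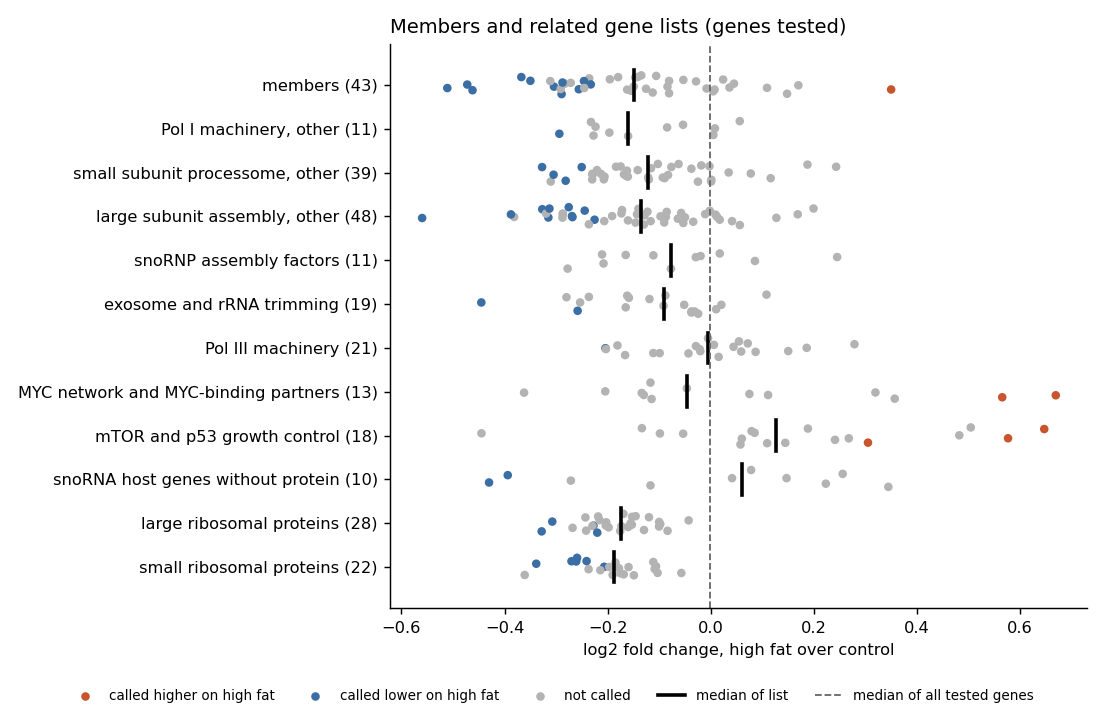
Log2 fold change (high fat over control) of each tested gene of the members and of 11 related lists, 1 point per gene, with the number of genes in brackets, the median of each list as a black bar and the median of all tested genes as a dashed line. Every one of the 50 ribosomal protein genes lies left of 0, and the points called higher are Nhp2 among the members, Mnt and Mycn of the MYC network, and Mtor, Sesn2 and Deptor of growth control.

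The MYC network and the mTOR and p53 genes gave 0 falls, where 5.13% of all genes tested fell. Myc, which activates many ribosome biogenesis genes, was low and unsteady at 2.03, 2.80, 1.89 and 2.23 CPM on the high fat diet and 1.53, 2.57, 3.39 and 2.21 CPM on the control diet (log2 fold change -0.11 ± 0.23 SE; edgeR adjusted p = 0.787). Of the 13 MYC network genes, 2 rose. Mnt, a partner of Max that represses E-box genes, was at 12.01, 12.1, 13.1 and 15.0 CPM on the high fat diet and 6.45, 9.73, 9.67 and 9.63 CPM on the control diet (log2 fold change 0.57 ± 0.13 SE; edgeR adjusted p = 0.0253), lost without high fat F or G (up to 0.0664). Its groups were apart. Mycn, a relative of Myc, was at 3.70, 2.75, 4.35 and 3.45 CPM on the high fat diet and 1.799, 2.02, 2.75 and 2.30 CPM on the control diet (log2 fold change 0.67 ± 0.17 SE; edgeR adjusted p = 0.0364), kept only without control L or high fat B (up to 0.103).

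Of 18 genes of mTOR and p53 growth control, 3 rose. Mtor, the kinase that promotes growth, was at 565, 513, 631 and 572 CPM on the high fat diet and 388, 320, 359 and 462 CPM on the control diet (log2 fold change 0.58 ± 0.10 SE; edgeR adjusted p = 0.00851). Sesn2, a stress-induced inhibitor of that kinase, was at 35.2, 24.6, 31.1 and 27.9 CPM on the high fat diet and 16.8, 15.2, 20.0 and 23.1 CPM on the control diet (log2 fold change 0.65 ± 0.14 SE; edgeR adjusted p = 0.0157). In both genes the groups were apart, and both calls were kept with any library left out. Deptor, another inhibitor of the kinase, had a log2 fold change of 0.30 (edgeR adjusted p = 0.0491), kept only without high fat B (up to 0.131).

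Markers of other cells moved as well, where 5.13% of all genes tested fell and 4.86% rose. Of 6 thick ascending limb markers, 5 fell, and their sum was 2908 to 3659 CPM on the high fat diet and 3654 to 4316 CPM on the control diet, so the diets overlapped at high fat A and control L. Of 9 dividing cell markers, 4 rose (Mki67, Top2a, Ccnb1 and Cdk1), and their sum was 67.4 to 83.5 CPM on the high fat diet and 56.6 to 61.7 CPM on the control diet. Intercalated cell markers summed to 217 to 241 CPM on the high fat diet and 254 to 287 CPM on the control diet, with 1 of 6 called, lower. Principal cell markers gave 2 falls of 6, and proximal tubule markers 2 falls and 1 rise of 9, while podocyte, distal convoluted tubule, endothelium and immune cell markers gave 0 calls in edgeR. At an unadjusted p under 0.05, 2 podocyte markers were lower and 1 was higher, and 0 of the other three lists were either. Without control J and high fat G, 1 thick ascending limb and 1 principal cell marker fell and 3 dividing cell markers rose. That fit called 0 proximal tubule and 0 intercalated cell markers, where 1.17% of all genes fell and 1.66% rose. The part of these cell types in the lower levels of the members was not tested.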

How the data were processed

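RNA of renal cortex was sequenced from 4 high fat and 4 control libraries, made from 1 ug of total RNA with a kit that removes ribosomal RNA, per the labels. The submitters' processing notes name the mm10 build with CASAVA 1.8.2 and RSEM 1.2.9. The authors deposited RSEM expected counts (estimated counts, not whole numbers) and FPKM per gene symbol, and a table of listed genes that gives a ratio (fold of the high fat over the control diet) and, as a score, the posterior probability that expression is equal. The sources used here do not give its tool. A second comparison table was not used.

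Expected counts were rounded to whole numbers, Rn45s was removed, and edgeR 4.0.16 in R 4.3.3 was run over 14711 genes (filterByExpr, TMM factors, quasi-likelihood F test, diet as the only term), with Benjamini-Hochberg adjustment and calls under 0.05. The standard error is the size of the log2 fold change over the square root of F. The script was tested on simulated data. Depth ran from 23503593 to 30781585 counts per library with Rn45s, and from 13993652 (control J) to 30403685 without it. Low genes are thus less precise. Single values were compared by exact permutation (scipy 1.17.1). The members and gene lists were chosen with earlier results of these data known. Named with values are all called members, the member with the smallest p among those not called in each role, Npm1, Ncl, Fbl, Polr1a, Ubtf, Rrn3, Dkc1 and Nob1, up to 3 called genes of each of 11 lists, and Myc; the values of 1 gene that this rule names are not reported here. Neighbouring and overlapping genes were named for their position and the dividing cell markers for their call, after their values were seen. Alternatives were DESeq2 1.42.0 (Wald test or size factors alone), limma-voom (limma 3.58.1), limma on log2(FPKM + 0.1) and log2(FPKM + 1) where the mean FPKM reached 0.5, Rn45s kept, a robust fit, no filter, a mean of at least 5 CPM, a length trend removed, thresholds of 0.1 and 0.01, and libraries left out; rescaled FPKM was added after the data were seen. Of the fixed list genes, 5 had no row under the symbol used. Positions are from GENCODE M21 on GRCm38, promoters from RefSeq on GRCm38.p6.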

Additional observations from a re-analysis of the deposited data

Results flagged for a closer look

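In 8 of 124 groups of 4 libraries examined, 1 library lay far from the other 3, where chance gives about 1 in 20. Rn45s took 50.3% of counts in control J, against 1.23% to 5.70% in the other controls. Among the pathway genes, Polr1e stood at 12.1 CPM in high fat A, against 10.7 to 10.8 CPM in the other high fat libraries. Mnt was at 6.45 CPM in control I, against 9.63 to 9.73 CPM in the other controls. Control L was high for Nol11, at 31.0 CPM against 28.1 to 28.4 CPM, and low for Pdcd11, at 53.3 CPM against 62.5 to 63.3 CPM. None of the 8 groups was of a member gene, but the groups examined did not take in every member. Among members left out, Nol9 was at 37.9 CPM in control M, against 32.4 to 32.8 CPM in the other controls. Pno1 was at 33.5 CPM in control M, against 35.4 to 35.6 CPM. Ddx10 was at 19.2 CPM in high fat B, against 15.4 to 15.8 CPM in the other high fat libraries. Rrp1b was at 11.6 CPM in high fat G, against 10.5 to 10.7 CPM. The red cell marker sum was 2300 CPM in high fat G, against 413 to 563 CPM in the other high fat libraries, and 871 CPM in control J, against 373 to 402 CPM in the other controls. The skeletal muscle sum, over 6 genes of which only 1 passed the filter on low counts, was 0.587 CPM in control I, against 0.988 to 1.04 CPM in the other controls.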

How the results depend on the processing

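The direction of the member median was kept under DESeq2, DESeq2 size factors, limma-voom, Rn45s kept, the robust fit, both filters, the length trend and rescaled FPKM, and 11 to 13 members were called in each. In limma on log2 FPKM as deposited, all genes shifted upward by 0.14 (pseudocount 0.1) or 0.11 (pseudocount 1), the member median was 0.0034 or 8.46e-05, 0 members and 0 list genes were called in either direction, and 91 and 98 of all genes were. At unadjusted p under 0.05 these fits gave 0 members and 485 and 499 genes. The difference in member level per library became -0.0018 on that scale. Without control J and high fat G, 3 members fell and 0 rose, and 3 list genes fell and 2 rose, in place of 30 and 5. At a threshold of 0.01, 3 members and 3 list genes fell, and 0 members and 1 list gene rose, while at 0.1, 2 members and 11 list genes rose and 63 list genes fell. DESeq2 gave 8 list genes that rose. With 1 library left out, members that fell ran from 5 to 9 and members that rose from 0 to 1, list genes that fell from 4 (without control I) to 34 and that rose from 2 to 5. All 12 called members kept their direction in each of those 8 fits. The difference in Rn45s share ran from -11.4 to 4.96 percentage points and turned positive without control J, and that in total count without Rn45s from -4400432 to 1069579, positive without control L or M. No paired analysis was possible because the library letters do not repeat between the diets. Gar1, with 46 to 80 counts per library, is the member that depth limits most. The cause of these changes was not tested.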
